A study of Mus musculus with 81 samples.

Results

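Troponins and tropomyosins are the calcium-regulated proteins of the thin filament, and their transcripts were measured here in the hearts of mice on 2 diets. The 8 genes were taken from a list of names, 4 cardiac forms (Tnnc1, Tnni3, Tnnt2 and Tpm1) and 4 forms known mainly from skeletal muscle (Tnni1, Tnnt1, Tnnc2 and Tpm2), of 22180 genes measured in all. Each is represented by 1 probe set that carries only its symbol, so all 8 were measured and none was chosen by its values. The hearts came from males of the BXD family, recombinant inbred strains bred from C57BL/6J and DBA/2J, and from those parents themselves. The age was 29 weeks in all groups and food was withdrawn overnight, and each array carried RNA pooled from about 5 animals of 1 strain on 1 diet. Of 81 arrays, 42 came from the chow diet and 39 from the high fat diet, and what the latter contained is not stated in the labels. In 39 strains (37 BXD and the parents) both diets were present, and BXD60, BXD79 and BXD92a had a chow array alone. Every pool mixes cell types of the heart, and the spread between animals within a pool is not seen. The mean of 10 atrial markers differed widely between pools, as given further on, and the share of atrium in each was not measured.

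Contraction starts when calcium binds troponin C, which releases the grip of troponin I on actin. Troponin T ties the complex to tropomyosin, a coiled coil that lies along the filament and uncovers the myosin binding sites as it moves. Heart muscle shares its troponin C gene, Tnnc1, with slow skeletal muscle, while the adult heart has its own troponin I (Tnni3) and troponin T (Tnnt2). Tnni1, slow skeletal troponin I, is also the form of the fetal heart and is replaced by Tnni3 after birth. Tnnt1 encodes slow skeletal troponin T, and Tnnc2 encodes fast skeletal troponin C. Tpm1 is the main tropomyosin of the mouse heart, and Tpm2, beta tropomyosin, is also found in smooth muscle.

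The promoters of the 4 cardiac forms are shown because 3 of these genes (Tnnc1, Tnni3 and Tnnt2) differed together between the diets. Each sequence is the 250 bases before the RefSeq transcription start on GRCm38.p6, read 5′ to 3′ on the gene's own strand. Capitals mark the MCAT element CATTCC and the GATA element AGATAA, each searched on both strands. Tnnc1 lies at chr14:31208062-31208311 (plus strand), Tnni3 at chr7:4522529-4522778 (minus strand), the first of 2 Tnnt2 starts at chr1:135836084-135836333 (plus strand) and Tpm1 at chr9:67049214-67049463 (minus strand).
Tnnc1: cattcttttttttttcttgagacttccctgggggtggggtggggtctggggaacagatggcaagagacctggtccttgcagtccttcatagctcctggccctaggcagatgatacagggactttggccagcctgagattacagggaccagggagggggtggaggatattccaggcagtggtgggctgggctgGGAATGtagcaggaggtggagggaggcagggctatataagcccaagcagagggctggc
Tnni3: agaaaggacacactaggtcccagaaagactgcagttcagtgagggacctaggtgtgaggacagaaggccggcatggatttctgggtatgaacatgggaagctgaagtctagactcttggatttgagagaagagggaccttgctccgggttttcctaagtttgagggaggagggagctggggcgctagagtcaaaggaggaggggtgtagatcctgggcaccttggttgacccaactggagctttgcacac
Tnnt2: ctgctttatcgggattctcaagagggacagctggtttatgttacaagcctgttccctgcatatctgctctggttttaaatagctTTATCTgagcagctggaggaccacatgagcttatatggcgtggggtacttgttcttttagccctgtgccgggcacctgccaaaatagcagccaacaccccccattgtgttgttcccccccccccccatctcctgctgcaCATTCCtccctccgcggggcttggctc
Tpm1: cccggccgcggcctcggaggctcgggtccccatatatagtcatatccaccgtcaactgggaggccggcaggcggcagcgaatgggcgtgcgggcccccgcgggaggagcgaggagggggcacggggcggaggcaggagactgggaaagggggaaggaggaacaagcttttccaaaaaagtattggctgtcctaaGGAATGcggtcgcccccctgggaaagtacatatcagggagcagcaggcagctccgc
An MCAT match, the letters bound by TEAD factors, stood 58 bases before the start in Tnnc1, 27 in Tnnt2 and 56 in Tpm1. Counting the first Tnnt2 start, it was present in 3 of 4 cardiac promoters and 0 of 4 skeletal ones, against 12.6% of 32851 RefSeq promoters of this length. These 3 are not the 3 called between the diets, since Tnni3 held no match and Tpm1 was not called. The GATA match occurred in Tnnt2 alone among the 8 genes, 166 bases before its first start, and in 9.99% of all promoters. Before the second start of Tnnt2, 0 MCAT and 0 GATA matches were found, so both of its matches depend on the start used. The letters TATAAA, searched on the coding strand, occurred only in Tnnt1, 30 bases before the start, and in 7.59% of all promoters. Neither a CArG box (1.47% of promoters) nor a MEF2 box (2.92%) was found in any of the 8. The E-box CANNTG, left in lower case, was present in all 8 and in 66.2% of promoters. These matches describe letters in a window and are no measurement of binding.

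Levels are given in rescaled units, on a scale that gives each array the same mean (8) and the same SD (2). A difference of 1 unit is 0.5 of that SD and has no known fold. Ranges and means are over the 39 strains with both diets. Between arrays the r over genes was 0.969 to 0.992. The diet test (limma, within strains, Benjamini-Hochberg adjustment over all genes) called 45.0% of 22180 genes at an adjusted p under 0.05, 21.2% lower and 23.8% higher on high fat. ERCC spike-in probe sets, which have no mouse target, were called nearly as often (40.2% of 92), and the 95th percentile of their absolute difference was 0.247 units. These probe sets were dim, with a mean of 5.96. Of 75 other controls with a mean of 9.03, 25.3% were called, with a 95th percentile of 0.388 units, and of 23 background probe sets 26.1%, with 0.0705. All 8 troponin and tropomyosin differences were smaller than the first 2 limits, while those of Tnnc1, Tnni1 and Tpm2 exceeded the third in size. No control set reaches the level of the cardiac troponins in its mean, and diet cannot be told apart here from a difference between the chow and the high fat arrays. Cardiomyocyte markers were bright, with Myh6 at 15.52 units, and the mean of 13 such markers ran from 14.34 to 14.67 over chow arrays and from 14.23 to 14.71 over high fat arrays. Skeletal muscle markers ran from dim to bright, with Mylpf at 5.94, Myh1 at 6.10 and Myh4 at 6.46, but Myl1 at 10.97 and Klhl41 at 11.41. The median of the 21 markers was 7.90, and background probe sets averaged 6.90.

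On the high fat diet all 3 cardiac troponin genes were slightly lower, while the cardiac tropomyosin and the 4 skeletal forms did not pass the test. Of the 4 cardiac forms 3 fell and 0 rose, with a median difference of -0.06 units over the 4. Of the 4 skeletal forms 0 fell and 0 rose, with a median of 0.05 units, and the median over all genes was 0.01. At the level of the cardiac troponins, 25.3% of 154 genes with a mean of 14 units or more were lower and 9.09% were higher.

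Tnnc1, the calcium sensor, ranged from 14.36 to 14.95 on chow with a median of 14.70, and from 14.36 to 14.86 on high fat with a median of 14.60. The diets overlapped over most of that range. Its mean went from 14.7 ± 0.148 to 14.6 ± 0.133 (SD, n = 39 strains), a difference of -0.118 ± 0.0249 (SE), lower in 30 of 39 strains (limma, adjusted p = 0.000144). Among the 8 genes Tnnc1 showed the difference furthest from 0 in its own standard errors, and it kept its call under each of 11 other settings of the fit, with adjusted p between 1.77e-05 and 0.00319.

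Tnni3, which holds actin inhibited when calcium is low, ranged from 15.72 to 16.11 on chow (median 15.89) and from 15.69 to 16.07 on high fat (median 15.85). Its difference was -0.0538 ± 0.0180 (SE), lower in 30 of 39 strains (limma, adjusted p = 0.0134). The 2 sets of values overlapped almost completely, and the shift was smaller than the SD between strains of 0.0823 on chow. Tnnt2, which anchors the complex to tropomyosin, ranged from 15.49 to 16.33 on chow (median 16.02) and from 15.37 to 16.15 on high fat (median 15.96). It differed by -0.0693 ± 0.0200 (SE), lower in 31 strains and higher in 7 (limma, adjusted p = 0.00425). Most of its range lay between strains, as described further on, and the test compares arrays within a strain.

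The calls of Tnni3 and Tnnt2 were less stable than that of Tnnc1. After quantile normalization the differences were -0.0284 for Tnni3 (limma, adjusted p = 0.125) and -0.0364 for Tnnt2 (adjusted p = 0.0714). Without the strain term Tnnt2 differed by -0.0593 over all 81 arrays (limma, adjusted p = 0.324). Over 11 other settings of the fit, the adjusted p ran from 0.00237 to 0.125 for Tnni3 and from 0.000572 to 0.324 for Tnnt2. A sign-flip permutation test of each gene alone gave unadjusted p of 0.00026 and 0.00017. Leaving out any 1 of the 39 strains ended none of the 3 calls.

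Tpm1, the tropomyosin that these troponins sit on, ranged from 12.05 to 12.55 on chow (median 12.28) and from 12.03 to 12.45 on high fat (median 12.25). Its difference was -0.01 ± 0.0183 (SE), with a 95% interval of -0.0466 to 0.0270 (limma, adjusted p = 0.69). The interval does not reach the difference of Tnni3, and it holds smaller shifts in both directions.

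None of the skeletal forms passed the diet test, and 1 of them, Tnni1, had an unadjusted p under 0.05 in limma's fit. Tnni1, the fetal and slow skeletal inhibitor, ranged from 7.91 to 8.71 on chow (median 8.32) and from 7.83 to 8.96 on high fat (median 8.47). Its mean was 8.33 ± 0.207 on chow and 8.45 ± 0.249 on high fat (SD, n = 39), so that the diets differed by 0.120 ± 0.0529 (SE), higher in 24 of 39 strains (limma, adjusted p = 0.0604). This value lay close to the threshold. It passed without the strain term (0.121, adjusted p = 0.0427), after centring arrays on their medians (adjusted p = 0.0486) and in a sign-flip permutation test of the gene alone (unadjusted p = 0.0346). The adjusted p ran from 0.0427 to 0.161 over 11 other settings of the fit. It also passed in 9 of 39 fits that left out 1 strain (BXD43, BXD45, BXD55, BXD62, BXD70, BXD87, BXD90, BXD98 or DBA/2J), with differences from 0.128 to 0.142. Among these the adjusted p was lowest, at 0.0183, without BXD90, the strain in which Tnni1 fell furthest (by 0.724).

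Tnnt1, slow skeletal troponin T, ranged from 7.61 to 8.59 on chow (median 8.10) and from 7.78 to 8.52 on high fat (median 8.08), with a difference of -0.0229 ± 0.0388 (SE). Tnnc2, the fast skeletal calcium sensor, ranged from 8.41 to 9.21 on chow (median 8.84) and from 8.39 to 9.35 on high fat (median 8.80), with a difference of -0.0164 ± 0.0440. Neither passed the test (limma, adjusted p = 0.658 and 0.787), and their intervals of -0.101 to 0.0553 and -0.105 to 0.0723 also hold shifts as large as that of Tnnt2. Tpm2 ranged from 7.55 to 9.46 on chow (median 8.56) and from 8.01 to 9.85 on high fat (median 8.58). Its difference of 0.150 ± 0.0958 (SE) was higher in 20 strains and lower in 19 (limma, adjusted p = 0.205). Single strains moved by as much as -1.11 units (BXD87) and 1.65 units (BXD63), the widest spread of the 8 genes.

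**Figure D1:**
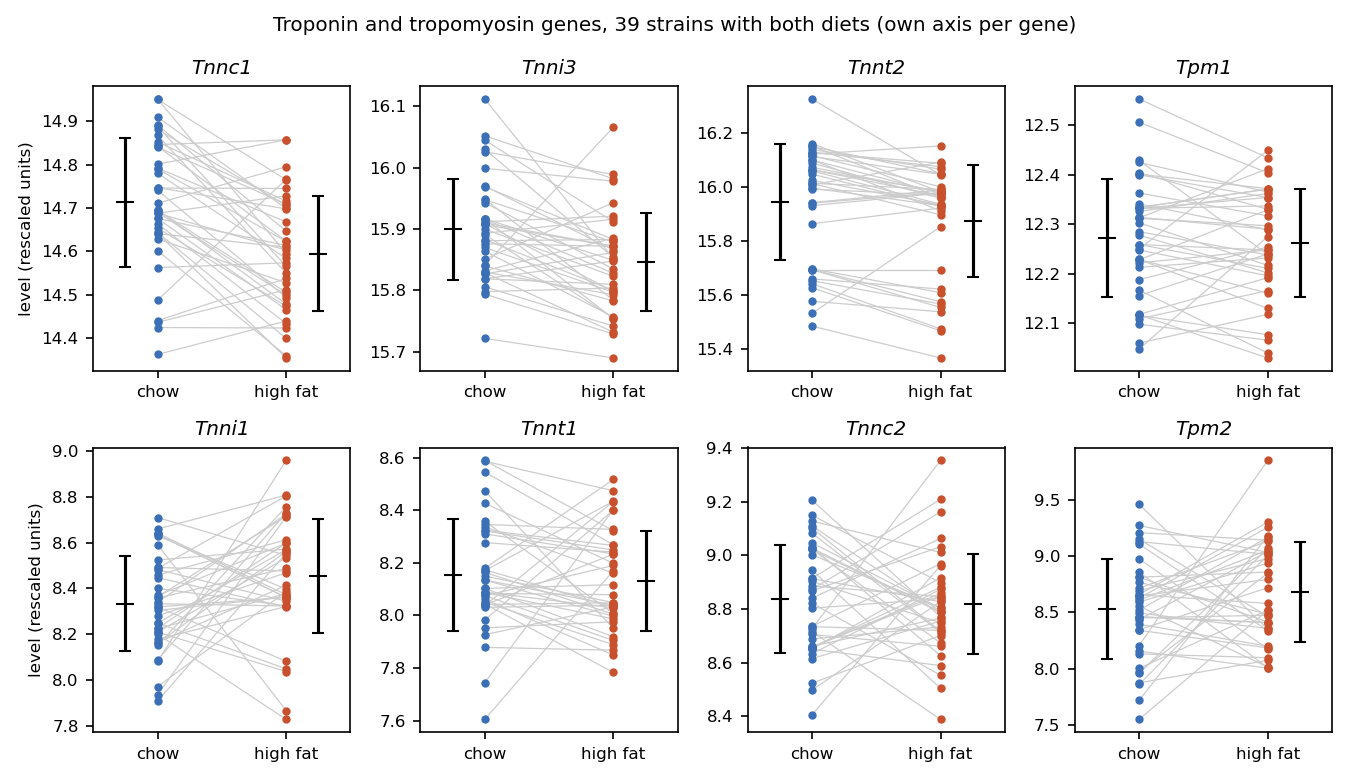
Level of each gene in rescaled units (vertical axes, 1 scale per gene) on chow and high fat for the 39 strains with both diets. Grey lines join the 2 arrays of a strain, bars are means ± SD, and the diets overlap in every panel; Tnnc1 goes from a mean of 14.7 to 14.6.

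**Figure D2:**
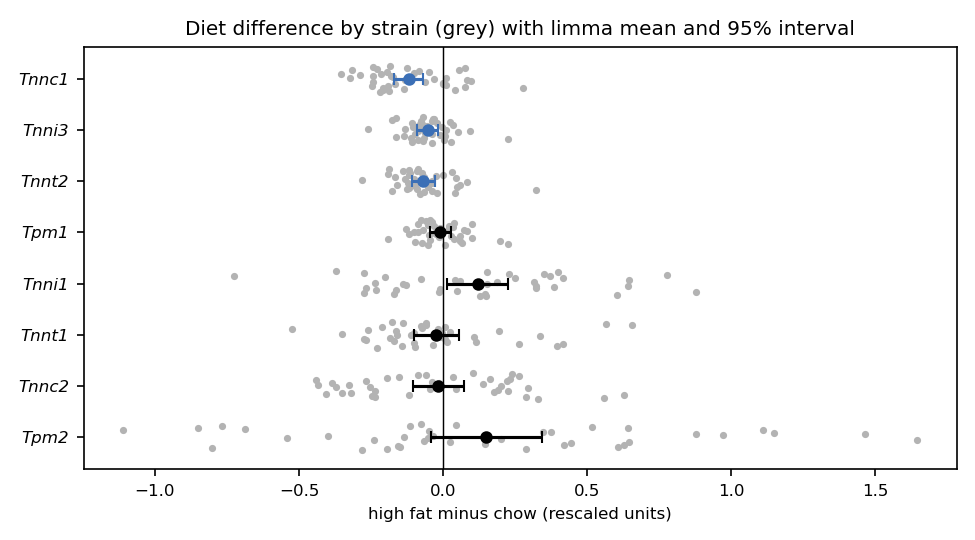
High fat minus chow in rescaled units (horizontal axis) for the 8 genes, with 1 grey point per strain and the limma mean with its 95% interval. Tnnc1, Tnni3 and Tnnt2 (blue, adjusted p under 0.05) lie below 0, and the points of Tpm2 spread from -1.11 to 1.65.

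BXD48 had the largest rise of all 39 strains in 5 of the 8 genes. The rise was 0.278 units in Tnnc1, 0.225 in Tnni3, 0.321 in Tnnt2, 0.877 in Tnni1 and 0.628 in Tnnc2. In BXD48 the mean of cardiomyocyte markers also rose most of the 39 strains, by 0.213. The share of all genes in which BXD48 rose most is not given here, so the count cannot be read as particular to these genes. Without BXD48 the differences were -0.129 for Tnnc1, -0.0612 for Tnni3, -0.0795 for Tnnt2 and 0.10 for Tnni1, whose adjusted p was then 0.104 (limma).

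The cardiac and the skeletal form of each subunit were then compared within strains, by subtracting the diet difference of the cardiac gene from that of the skeletal one. In 1 of 4 pairs the forms differed in how they moved. Tnni1 moved above Tnni3 by 0.174 units (95% interval 0.0641 to 0.284), in 26 of 39 strains (sign-flip permutation test, two-sided, p = 0.0029, adjusted over 4 pairs 0.0116). The troponin C pair gave 0.102 units for Tnnc2 over Tnnc1 (interval 0.00675 to 0.197), in 24 strains, and missed the threshold after adjustment (permutation p = 0.0359, adjusted 0.0717). The troponin T pair gave 0.0464 units (interval -0.0314 to 0.124, adjusted permutation p = 0.237). The tropomyosin pair gave 0.159 units (interval -0.0490 to 0.368, adjusted permutation p = 0.175). A unit need not stand for the same amount of RNA in both genes of a pair. In each of the 4 pairs the cardiac gene was also the brighter, so form and level cannot be told apart here.

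After quantile normalization the troponin I pair gave 0.145 units and missed the threshold (permutation test, adjusted p = 0.0514, the highest of 3 alternatives, which began at 0.00052). With each gene divided by its SD over arrays, the troponin C pair gave 0.698 SD and passed (permutation test, adjusted p = 0.0207, the lowest of 3 alternatives, which ended at 0.21). That pair also passed without BXD49, BXD68, BXD70 or BXD85, at 0.114 to 0.117 units. The troponin I pair passed in all 39 fits that left out a strain, with adjusted p from 0.00132 to 0.0224.

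Marker lists give the background of these shifts, beside 23.8% of all genes called higher and 21.2% called lower on high fat. Of 13 cardiomyocyte markers 7 fell and 0 rose, with a median of -0.06 units, close to that of the cardiac troponins and tropomyosin. The examples with the smallest adjusted p were Myl3, the ventricular essential light chain (-0.148), Myoz2, a Z-disc protein (-0.115), and Hrc, a calcium-binding protein of the sarcoplasmic reticulum (-0.146). Their part in the troponin differences was not tested, and fewer cardiomyocytes in a pool cannot be told apart here from less RNA per cardiomyocyte. Of 21 skeletal muscle markers 5 rose, 5 fell and 11 did not pass, near the shares over all genes. Atp2a1, the fast-twitch calcium pump, rose by 0.326 and Myh4, a fast myosin, by 0.205, while Tmod4, the skeletal tropomodulin, fell by 0.177. The mean of the 21 ran from 7.93 to 8.32 on chow and from 7.96 to 8.29 on high fat, so the diets overlapped. With that mean as a covariate the difference of Tnni1 was 0.0941 (limma, adjusted p = 0.161).

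Other proteins of the thin filament and its control were called in both directions, as were all genes (23.8% higher and 21.2% lower). Of 13 filament partners 3 rose, 3 fell and 7 did not pass, near the shares over all genes. Tmod4 had the smallest adjusted p, followed by Tnni2, fast skeletal troponin I (0.164), and Tpm4, a tropomyosin of non-muscle cells (0.160). Tmod4, Tnni2 and Tnnt3 belong to the skeletal marker list as well. Of 11 splicing regulators that act on troponin T or tropomyosin transcripts, or on other heart muscle transcripts, 3 rose and 4 fell. Rbfox1 fell by 0.191, and Celf1 and Celf2, which promote the fetal exon of Tnnt2, rose by 0.135 and 0.120. The arrays were read as 1 value per gene, so exon use of Tnnt2 or Tpm1 was not analysed here.

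Of 13 measured kinases and phosphatases linked to the thin filament (14 listed), 2 rose and 6 fell, against 23.8% and 21.2% of all genes. Ppp1ca, a catalytic subunit of protein phosphatase 1, fell by 0.182 and Prkd1, protein kinase D, by 0.146, while Prkcd, protein kinase C delta, rose by 0.112. Prkaca and Prkacb, the catalytic subunits of protein kinase A, which phosphorylates Tnni3, differed by -0.0800 and -0.0948. Of 14 transcription factors of contractile genes 4 rose and 2 fell, with Tbx20 at 0.152, Srf at 0.126 and Hand2 at -0.153. Tead1, which binds MCAT elements, differed by 0.000667 units (limma, adjusted p = 0.986). Tead4, another TEAD factor, was lower on high fat, by -0.0846 units (limma, adjusted p = 0.0401). Of 8 slow and fetal cardiac isoforms 0 rose and 2 fell, both slow myosins, Myh7 by 0.395 and Myh7b by 0.188. The other 6 did not pass and had differences of both signs. The fetal troponin I gene Tnni1, at 0.120, did not pass either (limma, adjusted p = 0.0604).

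Among the 8 genes, those that differed between strains were cardiac forms. The cardiac forms were also far brighter, with a median level of 15.26 units against 8.50 for the skeletal ones. What part level has in the strain calls was not tested. Of the 8 genes 3 differed between strains (limma F test, adjusted p under 0.05), against 14.8% of all genes, and the 3 were Tnnt2, Tpm1 and Tnnc1. The intraclass correlation, the share of variance that the 2 arrays of a strain have in common, was 0.887 for Tnnt2, 0.722 for Tpm1, 0.493 for Tnnc1 and 0.479 for Tnni3. For the skeletal forms it was 0.265 in Tnnt1, -0.0134 in Tpm2, -0.0391 in Tnnc2 and -0.119 in Tnni1, and its median over all genes was 0.155.

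Tnnt2 had the strongest strain pattern of the 8 genes (F = 10.9, rank 135 of 22180, limma adjusted p = 1.76e-10). Its strains formed 2 sets with a gap of 0.201 units between them. In the lower set 11 strains (10 BXD and DBA/2J) had means of 15.43 to 15.69, and in the upper set 28 strains (27 BXD and C57BL/6J) had means of 15.89 to 16.19. The gap took 26.4% of the range over strains, counting gaps with at least 5 strains on each side, and 62 genes had a larger share. The sets were also apart on each diet alone, by 0.167 units on chow and 0.044 units on high fat.

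BXD48 narrowed the gap on high fat, with 15.53 on chow and 15.85 on high fat. The lowest strain was BXD99 (15.49 on chow and 15.37 on high fat) and the highest BXD71 (16.33 and 16.05). Of the 3 strains with chow alone, BXD60 had 16.10, BXD79 15.66 and BXD92a 15.65, so each lay within the chow range of 1 of the sets. The sets were read from the values, and no test was made between them. All 7 other genes had their widest such gap at 5.49% to 9.32% of their range, below the share of Tnnt2.

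**Figure D3:**
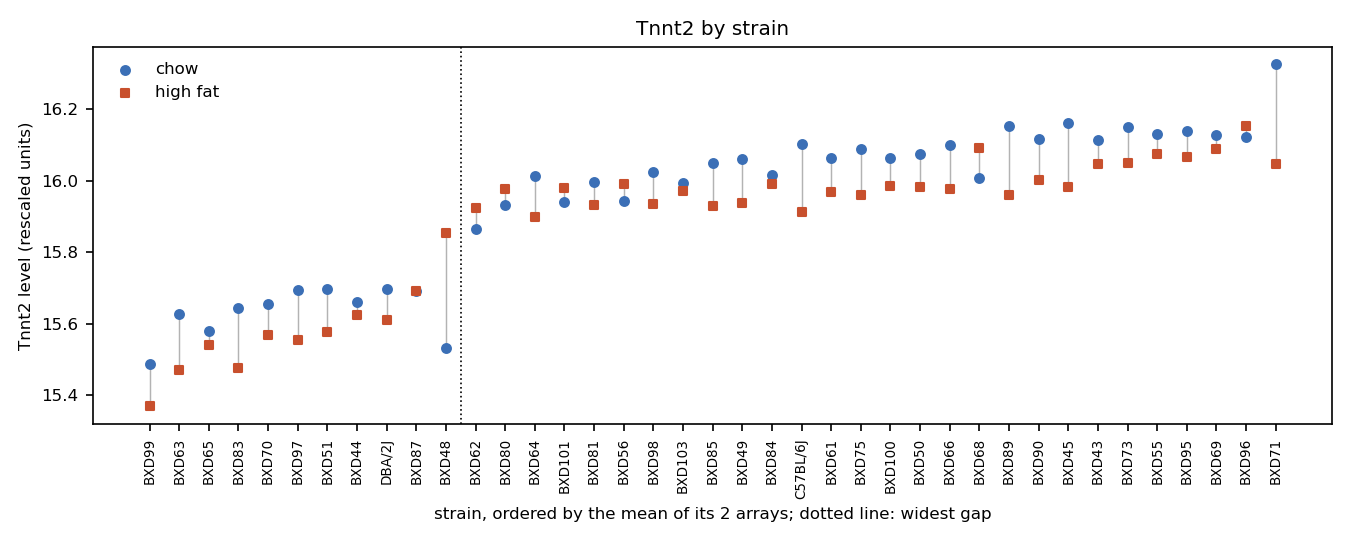
Tnnt2 level in rescaled units (vertical axis) on chow (circles) and high fat (squares) for 39 strains ordered by their mean (horizontal axis). The 11 strains left of the dotted line have means of 15.43 to 15.69 and the 28 to its right 15.89 to 16.19, and the 2 arrays of BXD48 are 15.53 and 15.85.

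The parents fell on opposite sides of the gap. Tnnt2 was 16.10 on chow and 15.91 on high fat in C57BL/6J, and 15.70 and 15.61 in DBA/2J. The difference of DBA/2J from C57BL/6J was -0.354 ± 0.0882 units (SE; 95% interval -0.531 to -0.176; limma, adjusted p = 0.0158). Tnnt2 was the only 1 of the 8 called in this contrast, in which 2.36% of all genes were called and 1.08% were lower in DBA/2J. After quantile normalization it was -0.234 (limma, adjusted p = 0.088, over 4 alternatives from 0.00188 to 0.088). Each parent has 1 array per diet, so the error comes from the spread within strains around the diet difference, pooled over the 39 strains.

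Tnnc1 was higher in DBA/2J, with 14.95 on chow and 14.77 on high fat against 14.64 and 14.40 in C57BL/6J, and DBA/2J had the highest mean of the 39 strains. The difference of 0.336 ± 0.110 units (SE) missed the threshold (limma, adjusted p = 0.107), and passed after quantile normalization (0.355, adjusted p = 0.018) and with a trended variance (adjusted p = 0.0491), over 4 alternatives from 0.018 to 0.114. DBA/2J also had the lowest mean of Tnni1 (8.20 on chow and 7.83 on high fat), where the parents differed by -0.347 ± 0.234 (SE, adjusted p = 0.583, limma). The parents differed by 0.0470 in Tnni3, 0.0215 in Tpm1, 0.183 in Tnnt1, -0.0395 in Tnnc2 and -0.218 in Tpm2, none of which passed.

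Tpm1 differed between strains without a difference between the parents. Its strain means ran from 12.07 in BXD69 (12.12 on chow and 12.03 on high fat) to 12.49 in BXD66 (12.55 and 12.43), with F = 3.46 (limma, adjusted p = 0.00117). Only 2 of 37 BXD strains lay between the parents, with 16 below and 19 above both. Tnnc1 ran from 14.40 in BXD49 to 14.86 in DBA/2J (F = 2.44, limma adjusted p = 0.023), and without the parents its F of 2.24 missed the threshold (adjusted p = 0.0511, the highest of 7 alternatives, which began at 0.00177). Tnni3 ran from 15.71 in BXD99 to 16.02 in BXD73 and did not pass (adjusted p = 0.223), except with a trended variance (adjusted p = 0.0217, over 7 alternatives up to 0.508). For the skeletal forms the adjusted p of the strain test was 0.142 (Tnnt1), 0.532 (Tpm2), 0.655 (Tnnc2) and 0.771 (Tnni1).

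Genes whose values followed Tnnt2 over the arrays lay largely on its own chromosome. Likeness is the mean of Pearson r over the 42 chow arrays and r over the 39 high fat arrays, given as a description, since arrays share strains. Of 1233 other genes of chromosome 1, 10 had a likeness above 0.5 in size, against 2 of 20946 genes on other chromosomes. Of these, 5 were among the 50 genes nearest to Tnnt2, with 7 among the nearest 100 and 9 among the nearest 200. The closest was Lgr6, a receptor for R-spondins that lies 15 genes away (r = 0.872 on chow and 0.827 on high fat). Lgr6 averaged 10.83 units in C57BL/6J and 9.12 in DBA/2J.

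The direction differed among these neighbours. Ipo9, a nuclear import receptor, had a likeness of 0.68, Mcm6, a helicase subunit of DNA replication, 0.68, Slc35f5 0.61, Shisa4 0.57 and Rnpep, an aminopeptidase, 0.50. Ddx59, an RNA helicase, stood at -0.70, Chil1, a chitinase-like protein, at -0.68, Ctse, cathepsin E, at -0.67 and Snrpe, a core spliceosome protein, at -0.67. The strains form 2 sets, so these values include the step between them. Within the lower and the upper set the r of Lgr6 with Tnnt2 was -0.152 and -0.429, opposite in sign to its likeness. Slc35f5 kept its sign in both sets (0.659 and 0.337), and so did Ddx59 (-0.429 and -0.0923) and Mcm6 (0.584 and 0.0489). Chil1 (-0.254 and -0.223), Ctse (-0.283 and -0.183) and Snrpe (-0.0987 and -0.0922) kept theirs as well. The signs of Shisa4 and Rnpep turned in both sets, and that of Ipo9 in the upper set alone (0.193 and -0.089). Off chromosome 1, Pilrb1 (chromosome 5) had 0.71 and B020004C17Rik (chromosome 14) 0.56, the latter named after its value was seen.

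The genes on either side of Tnnt2 did not share its pattern. Lad1, a filament-anchoring protein of epithelia, had r = -0.309 on chow and -0.298 on high fat, and Pkp1, a desmosomal protein, 0.00283 and -0.145. Tnni1 lies on the other side of Lad1 and had an intraclass correlation of -0.119, against 0.887 for Tnnt2. The other troponin pair that sits side by side, Tnni3 and Tnnt1 on chromosome 7, had r = -0.154 on chow and 0.303 on high fat. Gene order was taken from RefSeq. Whether variants between the parent strains lie under the probes of Tnnt2 or its neighbours was not tested, so a difference in hybridisation cannot be told apart here from a difference in transcript level, in the 2 sets, the parents or the likeness.

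**Figure D4:**
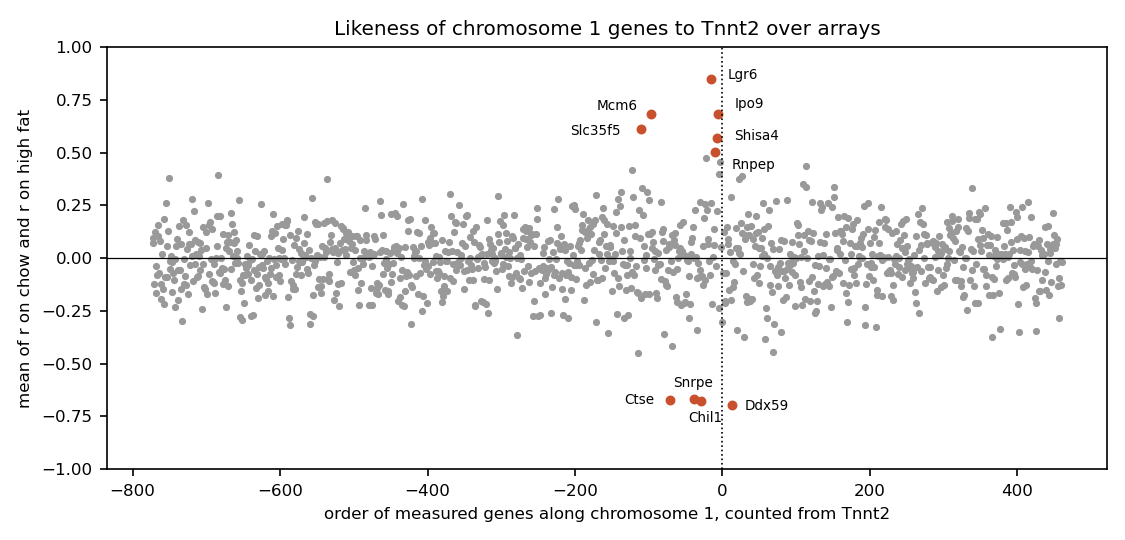
Mean of r on chow and r on high fat with Tnnt2 (vertical axis) for 1233 genes in their order along chromosome 1, counted from Tnnt2 (horizontal axis). The 10 named points exceed 0.5 in size, and 9 of them lie within 100 genes on either side.

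Pairs of cardiac troponin genes also varied together over the strain means. Both genes of a pair are read from the same arrays, so variation common to an array enters each r. Tnni3 itself did not pass the strain test (limma F test, adjusted p = 0.223). Over the strain means of 39 strains, Tnnc1 and Tnni3 correlated with r = 0.468 and rho = 0.483 (permutation test, adjusted p over 21 pairs 0.0251 and 0.0223). The r was 0.392 without the 2 most distant strains, 0.447 within chow and 0.552 within high fat. Tnni3 and Tpm2 correlated negatively, with r = -0.551 and rho = -0.560 (permutation test, adjusted p = 0.0063 and 0.00609). That r was -0.451 without the 2 most distant strains, and it was -0.646 within high fat but -0.131 within chow. None of the other 19 pairs passed, the closest being Tpm1 with Tnnt1 (r = 0.405, adjusted permutation p = 0.0722).

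Tnnt2 was examined within its 2 sets of strains, in 14 relations. Tnni3 followed it in both, with r = 0.848 and rho = 0.718 over the 11 lower strains and r = 0.711 and rho = 0.679 over the 28 upper ones. In the upper set both passed (permutation test, adjusted p = 0.00042 for r and 0.00168 for rho), and r was 0.661 without the 2 most distant strains. In the lower set r passed (permutation test, adjusted p = 0.00621), while rho did not (0.0752), and r was 0.598 without the 2 most distant strains. Tnnc1 followed Tnnt2 in the upper set (r = 0.586, rho = 0.597, adjusted permutation p = 0.00621 and 0.00756) and gave r = 0.0546 in the lower one. The remaining relations did not pass.

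Cardiomyocyte markers moved with Tnni3 as well. The mean of the cardiomyocyte markers correlated with Tnni3 at r = 0.585 on chow and 0.658 on high fat (permutation test, adjusted p over 84 relations 0.000525 and 0.00036). With Tnnc1 it gave 0.148 on chow and 0.464 on high fat (adjusted permutation p = 0.597 and 0.016). The genes most like Tnni3 were Idh3g (0.71), a subunit of isocitrate dehydrogenase, Atp5b (0.70), the beta subunit of ATP synthase, and Ndufb9 (0.65), a complex I subunit. Those most like Tnnc1 were Tmem38a (0.64), a cation channel of the sarcoplasmic reticulum, Ndufaf3 (0.60), an assembly factor of complex I, and Psmc4 (0.56), a proteasome subunit.

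Tpm2 followed the markers of atrium and smooth muscle. The atrial marker mean varied widely, from 9.14 to 13.07 on chow and from 9.12 to 13.33 on high fat, and Tpm2 rose with it (r = 0.790 and rho = 0.849 on chow, 0.747 and 0.733 on high fat). With the smooth muscle marker mean, which ran from 9.67 to 10.66 on chow and from 9.62 to 10.50 on high fat, r was 0.760 on chow and 0.759 on high fat. Without the 2 arrays most distant in the marker mean, r lay between 0.729 and 0.814 in these 4 relations. All 4 had an adjusted permutation p of 0.00014; the unadjusted value, 1e-05, is the lowest that this number of draws allows. Fibroblast markers gave 0.691 on chow and 0.548 on high fat, and brown fat markers 0.458 and 0.473, which also passed. The cardiomyocyte mean gave -0.336 on chow (adjusted permutation p = 0.107) and -0.686 on high fat (0.00014). Relations among the marker means were not tested, so those of Tpm2 with atrium and with smooth muscle cannot be told apart here.

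Of the 12 smooth muscle markers 4 rose on high fat and 0 fell, with Smtn at 0.253, Myl9 at 0.288 and Acta2 at 0.232. Over all genes 23.8% rose and 21.2% fell. Of the 10 atrial markers 0 passed in limma's test, and 0 had an unadjusted p under 0.05. Of the 11 fibroblast markers 5 rose and 0 fell, and of the 9 brown fat markers 1 rose and 2 fell. The difference of Tpm2 between the diets, 0.150, was 0.0971 with the atrial mean as a covariate and 0.0603 with the smooth muscle mean (limma, adjusted p = 0.222 and 0.476). The genes most like Tpm2 were Fgf12 (0.86), Pam (0.84), the peptide-amidating enzyme that is abundant in atria, and Sbk3 (0.83). No relation with the skeletal muscle marker mean passed for any of the 7 genes other than Tnnt2, on either diet.

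**Figure D5:**
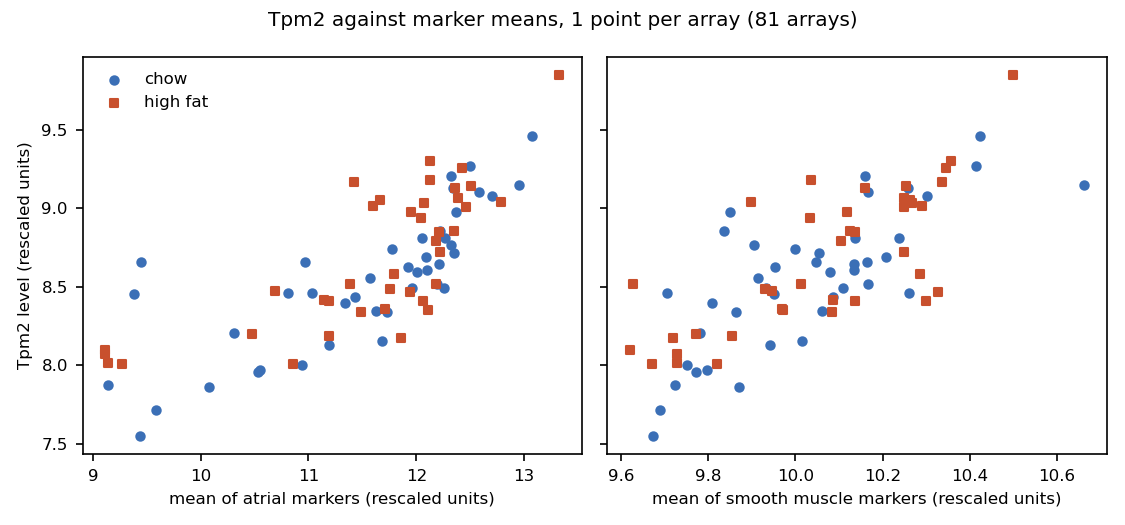
Tpm2 level in rescaled units (vertical axes) against the mean of 10 atrial markers (left) and 12 smooth muscle markers (right), 1 point per array, on chow (circles) and high fat (squares). Tpm2 is higher where either mean is higher, with r of 0.790 and 0.747 on the left and 0.760 and 0.759 on the right.

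The remaining genes had weaker partners. Tpm1 was most like Dnajb5 (0.50), a heat shock cofactor, Myzap (0.49), a protein of the intercalated disc, and Hps1 (0.49). Tnnc2 was most like Dguok (0.46), a mitochondrial nucleoside kinase, Smyd1 (0.45), a muscle methyltransferase, and Pdha1 (0.45), a subunit of pyruvate dehydrogenase. Tnnt1 was most like Sdhb (0.44), a complex II subunit, Snord13 (0.42) and Ptdss2 (0.42). Tnni1 was most like Spata31d1a (0.54), Mir346 (0.53) and Sox14 (0.53). Its level of 8.39 units lay near that of the median gene (8.18), and whether it stood above background was not tested. How high the best match among so many genes would be without any relation was not tested either. Of the 20 genes most like each member, 10 lay on its own chromosome for Tnnt2, whose chromosome holds 5.64% of the genes, and 0 to 4 did for the other 7.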

How the data were processed

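Expression was measured on Affymetrix arrays, 1 per strain and diet, and groups were taken from the treatment and genotype labels. The treatment text shared by all samples names chow only, at odds with the treatment label of the 39 high fat arrays. The authors deposited a score for each probe set, made with Affymetrix Expression Console per the submitters' processing notes (no version named). In the file all arrays have the mean 8.0 and the SD 2.0 (41345 probe sets), which removes any shift common to most transcripts. No source used here states the base or slope, so log2 tests foreseen in the plan were run on the scores and no fold is given. Precision is limited by how many arrays there are.

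Probe sets with 1 symbol in the platform annotation (23521) were used, the brightest per gene by its mean, with no filter on level. The gene order comes from a RefSeq table (GRCm38.p6), of which no coordinates are printed, and promoters from RefSeq's promoter sequences. Diet was fitted in R 4.3.3 with limma 3.58.1 on 78 arrays with strain and diet as terms, strain by the F test of the same model, and the parents by a contrast. Arrays were paired by their strain label. As a check, deviations from the diet means had a median r of 0.248 between the 2 arrays of a strain and of -0.00927 between strains. Isoform pairs were tested by flipping signs over strains, and correlations by permutation (100000 draws, two-sided). The tests were checked on simulated data.

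The genes described and all lists were chosen with earlier results of these data known. Named are the 8 genes, up to 3 genes with the smallest adjusted p of each context list, the 3 genes most like each of the 8 among those above the median level (8.18, predicted genes left out), the nearest gene on each side, and defining markers where a value bears on one. The genes of chromosome 1 with a likeness above 0.5, and Prkaca, Prkacb, Tead1, Tead4, Klhl41 and Myl1, were named after their values were seen. Alternatives covered the strain term, scaling (with statmod 1.5.0 for the weights), variance model, dim genes, the probe sets per gene, the strains used and marker covariates. Chosen after seeing the data were the atrial covariate and the trended variance for strain, the share among genes of 14 units or more, the marker correlations and the 2 sets of Tnnt2 strains.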

Additional observations from a re-analysis of the deposited data

How the results depend on the processing

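No result changed its direction under any alternative that was run. Without the replicate block of strain, over all 81 arrays, 1 of the 8 genes (Tnni1) was higher on high fat instead of 0, and with each array centred on its median also 1. After quantile normalization 1 gene (Tnnc1) instead of 3 was lower on high fat, and the troponin I pair gave 0.145. With a trended variance 2 of the 8 genes instead of 1 differed between the parents. Among genes above the median level, where fewer genes were tested, 2614 rose and 2106 fell, against 5288 and 4697. With each gene divided by its SD the troponin C pair gave 0.698. Leaving out each strain in turn, 0 to 1 of the 8 genes rose and 3 fell, and the pairs gave 0.0851 to 0.117 for troponin C, 0.156 to 0.198 for troponin I, 0.0303 to 0.0582 for troponin T and 0.122 to 0.193 for tropomyosin. The causes of these changes were not tested. Counts within the context lists moved by more than 1.5 times in 23 cases.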
